A study of Glycine max with 12 samples.

Results

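Soybean (Glycine max) roots colonized by an arbuscular mycorrhizal fungus were compared with roots grown without one, across all genes. The comparison used all 12 libraries of the series, 9 from colonized and 3 from uncolonized roots. The uncolonized group (NM) had no inoculum. The colonized libraries came from roots with Rhizophagus irregularis (Ri), from roots highly colonized by Glomus aggregatum (Ga-H) and from roots with a low colonization by the same species (Ga-L), with 3 libraries in each. Total RNA of root tissue was sequenced in every group. The labels give no cultivar, plant age or growth condition for these roots and do not say whether replicates came from separate plants or pots. Any p-value below therefore rests on how far these libraries spread, and part of that spread may be technical. The study's title places the data in the question of how sugar metabolism and export relate to growth benefits from the symbiosis.

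Arbuscular mycorrhizal fungi grow between and inside the cortical cells of a root and form branched structures, the arbuscules, within living plant cells. Across the membrane around the arbuscule the plant takes up phosphate and ammonium and gives the fungus sugars and lipids. In legumes this requires the plant to recognise fungal signals, to switch on a set of genes in the cells that house the fungus, and to adjust its own phosphate uptake and defences.

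For the common response the 3 inocula received equal weight, so that the mean of the Ri, Ga-H and Ga-L group means was set against NM. Neither the deposited tables nor the reference table used here pairs the gene IDs with names. Genes are therefore described by their values, and a few are given by ID. The number before the G in a soybean ID is the chromosome. The root identity of the libraries could not be checked against marker genes for the same reason.

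The libraries held between 10182200 and 11054762 expected counts, and 36323 genes had enough counts to be tested. Every NM library (10781536 to 11054762) held more counts than every colonized library (10182200 to 10732861). The numbers of genes listed, given below, were not adjusted for this. Levels are given as FPKM (the authors' values, which scale fragments by transcript length and sequencing depth) or as CPM (counts scaled to library size, here with TMM factors). Ri replicate 1 stood apart from the other Ri libraries. Among genes that rose with colonization, the median SD of log2 CPM within a group was 0.29 in NM, 0.21 in Ga-H, 0.24 in Ga-L and 0.36 in Ri. Between Ri replicates 2 and 3 alone it was 0.18. The counts of calls and the order of the inocula are also given without Ri replicate 1. A library lists each gene with a value above 0. Colonized libraries listed 43432 ± 315 genes (SD, n = 9) and NM libraries 43018 ± 43.1 (SD, n = 3). The difference of 414 genes did not pass (2-sided exact permutation p = 0.0636, where 220 splits allow at least 0.00455).

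Colonized roots had 3363 genes at a higher and 1715 at a lower level than uncolonized roots. The rises were far larger than the falls. At least an 8-fold change was reached by 791 of the genes that rose and by 21 of those that fell. On the log2 scale the median rise was 1.33 (quartiles 0.73 and 2.79) and the median of the falling genes was -0.78 (quartiles -1.09 and -0.56), against 0.00 over all tested genes. The threshold was a Benjamini-Hochberg adjusted p of 0.05 in the quasi-likelihood F test of edgeR, and the calls make up 9.26% and 4.72% of the tested genes, or 14.0% in both directions together. Of the called genes, 66.2% were higher. Upper quartile scaling brought this to 54.5%, and leaving out Ri replicate 1 to 50.5%, where 4906 genes were higher and 4817 lower.

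**Figure D1:**
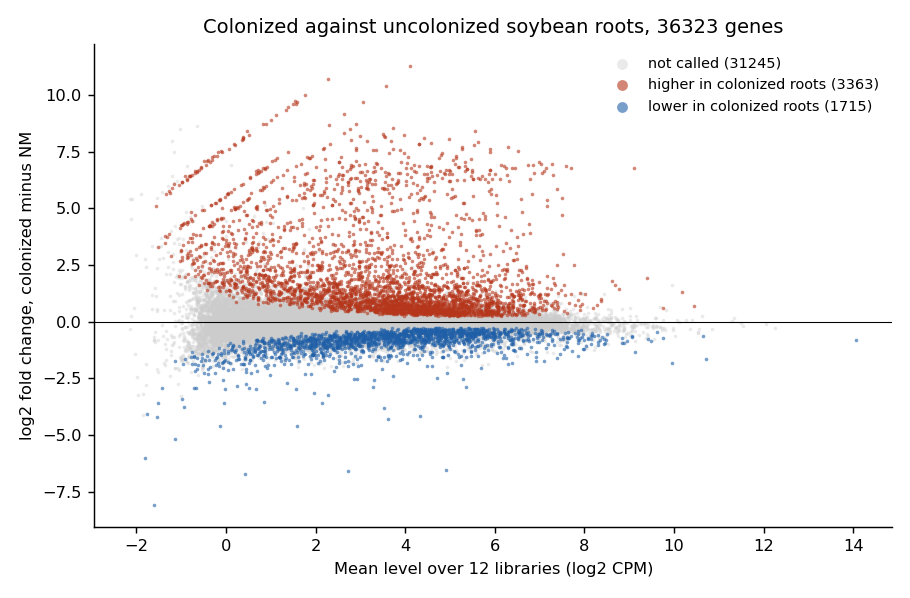
Each point is 1 of 36323 tested genes, with its mean level over the 12 libraries (log2 CPM) on the horizontal axis and the log2 fold change of colonized against NM roots on the vertical axis. Red points are the 3363 genes called higher and blue points the 1715 called lower. The red points reach much farther from 0 than the blue ones, at low and at high levels.

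The count of falling genes depended on single libraries more than that of rising genes. It was 996, 578 and 730 without NM replicates 1, 2 and 3, 1080 without Ga-H replicate 2, 1036 without Ga-L replicate 2, but 4817 when Ri replicate 1 was left out. The count of rising genes was 2023 without NM replicate 2 and between 2286 and 4906 with any other library left out. A test against a change of at least 2-fold (edgeR's glmTreat) called 1095 genes higher, 3.01% of those tested, and 44 lower, 0.121%, which makes 3.14% in both directions. When the 9 colonized libraries were fitted with 1 common mean, so that differences between inocula counted as spread, 2663 genes were higher and 688 lower. That fit kept 79% of the genes that rose and 40.1% of those that fell.

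The genes that rose covered a wide range of sizes. A change of less than 2-fold was found for 1279 of them, 38% of the total. At the other end, 426 genes, or 12.7%, rose at least 32-fold. From a median of 0.21 FPKM in NM they reached a median of 20.9 FPKM in colonized roots. In the class between 8-fold and 32-fold the medians were 0.377 and 5.38 FPKM, and in the class under 2-fold they were 7.44 and 11.3 FPKM. Of all the fold classes, the one with the largest rises also had the highest median level in colonized roots. The classes were formed on these same libraries, so this order describes the classes and supports nothing further. For 56 of the genes that rose, no NM library held a count after rounding. Falls were mostly shallow. Of the 1715 genes, 1180 (68.8%) fell by less than 2-fold, with medians of 13.7 FPKM in NM and 9.18 FPKM in colonized roots. A fall of at least 32-fold was called for 6 genes.

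Abundant transcripts among the genes that rose were split by the size of their rise. Of the genes that rose, 134 had a mean of at least 100 FPKM in colonized roots, and 16 reached that level in NM. Among the 134, 72 rose at least 32-fold. The other 62, of which 10 rose at least 8-fold, had a median log2 fold change of 1.28 (quartiles 0.88 and 1.91). The 72 strongly induced genes took between 1.43% and 3.52% of all counts in the colonized libraries, lowest in Ga-H replicate 3 and highest in Ga-L replicate 1. They took 0.00597%, 0.00934% and 0.0466% in NM replicates 1, 2 and 3. The 72 genes were chosen for rise and level in these libraries, so the gap to NM describes the set and supports nothing further. Their median log2 fold change against NM was 6.67 for Ri, 6.43 for Ga-H and 7.25 for Ga-L. In edgeR's test of any difference among the inocula 1 of the 72 was called, near the share of 2.62% among all tested genes.

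The NM libraries differed in what they held of these 72 transcripts. In NM replicate 3 the median gene stood at 2.17% of its mean colonized CPM, with quartiles of 1.6% and 2.61%. NM replicates 1 and 2 held 0.106% (quartiles 0.0551% and 0.18%) and 0.295% (quartiles 0.192% and 0.441%). The size of the fold change at these genes therefore rests on NM replicate 3. Their median log2 fold change was 6.78 with all libraries (quartiles 6.43 and 7.22), 8.77 without NM replicate 3, 6.29 without NM replicate 1 and 6.36 without NM replicate 2. Why NM replicate 3 held more of these transcripts was not tested.

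Apart from the 168 genes under 0.3 FPKM, the share of genes called was lowest at low levels. Among genes with a mean of 0.3 to 1 FPKM over the 12 libraries, 6.27% were higher and 2.51% lower. Among those with 30 to 100 FPKM the shares were 12.2% and 6.33%. Counts limit what can be called at low levels, so these shares do not compare the response itself. The mean behind the classes includes the 9 colonized libraries, so a strongly induced gene can enter a high class through its induced level alone, and the fold changes by class cannot be read as a trend with level. The median log2 fold change of the rising genes was 2.21 in the class from 0.3 to 1 FPKM and 0.95 from 10 to 30 FPKM. Its value was 6.22 in the 105 genes at 100 FPKM or more. How much of this value comes from the way of forming the classes was not tested. The falling genes had medians between -0.63 and -0.78 in every class from 3 FPKM upward.

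**Figure D2:**
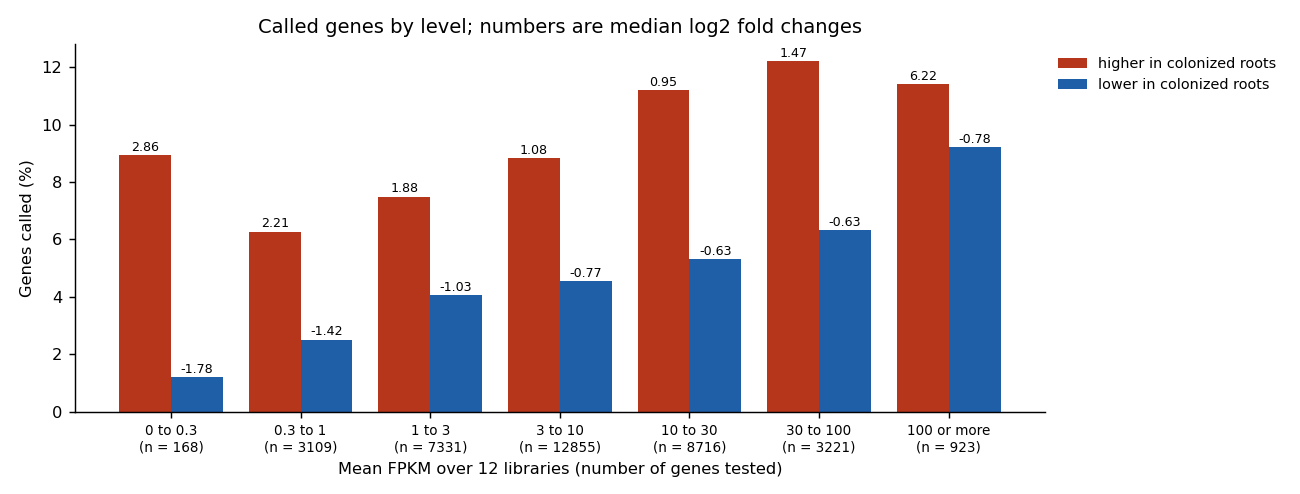
Bars give the share of tested genes called higher (red) or lower (blue) in colonized roots, by the mean FPKM over the 12 libraries, with the number of genes in each class under the axis. The numbers above the bars are median log2 fold changes. Genes called higher outnumber those called lower in every class, with 11.4% against 9.21% in the class of 100 FPKM or more, which strongly induced genes enter through their level in colonized roots.

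The genes that rose held 4.68%, 4.17% and 4.68% of all counts in NM replicates 1 to 3. They held 12.7%, 13.9% and 12% in the Ri libraries, 12.4%, 12.5% and 10.9% in Ga-H, and 16.6%, 14.7% and 12.6% in Ga-L. Every colonized library was above every NM library. Ga-L lay above Ga-H in all libraries, and Ri overlapped with both. The genes that fell held 12.5 ± 0.208% in NM (SD, n = 3) and 6.26 ± 0.595%, 6.88 ± 0.313% and 8.32 ± 0.848% in the Ri, Ga-H and Ga-L libraries. Both sets were chosen on these libraries, so the gaps to NM describe the sets and support nothing further. In bulk RNA, more or fewer cells of a type and more or less RNA per cell cannot be told apart.

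**Figure D3:**
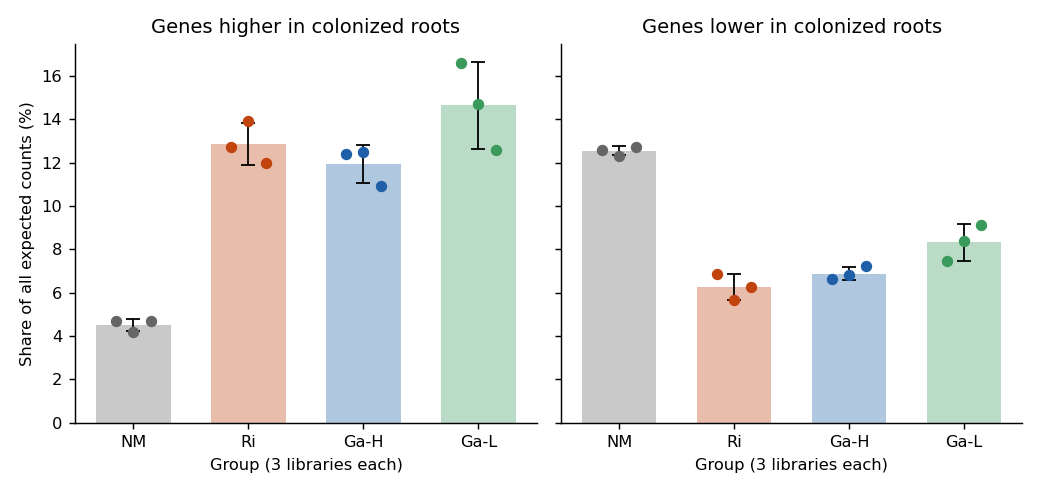
Bars give the mean share of all expected counts (%) held by the genes called higher (left) and lower (right) in colonized roots, with the SD as error bars and 1 point per library (3 per group). The higher genes hold 4.51% of counts in NM and 11.9% to 14.6% in the colonized groups, and the lower genes 12.5% in NM and 6.26% to 8.32%.

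The gain was spread over many genes, and the loss rested on few. Of the summed gain in CPM, 50% came from 205 genes, 6.1% of those that rose, and the top 10 gave 9.9%. For the loss, 34 genes (1.98% of those that fell) gave 50%, the top 10 gave 38.5% and a single gene gave 20.1%. That single gene is not among those given by ID below, and its values by library are not shown.

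Calls made without a library were then read in that library, which had no part in the calls. Only genes that passed the count filter with all 12 libraries were read, at the scaling of all 12 libraries. The lists are therefore slightly shorter than the counts of calls given above. For genes called higher without it, each NM library lay nearer to the mean of the other NM libraries than to the colonized mean at 86.9% to 97% of the genes. Of the 9 colonized libraries, 8 lay on the colonized side at 86.3% to 97.1% of the genes, and Ri replicate 1 at 69.5%. On a scale where the mean of the other NM libraries is 0% and that of the other colonized libraries 100%, the median position of a left-out colonized library ran from 79.9% in Ri replicate 1 to 114% in Ga-L replicate 1. Left-out NM libraries lay between -8.48% (NM replicate 2) and 17.1% (NM replicate 3).

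Falling genes carried over to a left-out library less evenly. NM libraries were on their own side at 68.9% to 81.5% of the genes called lower without them. Among colonized libraries the share was 93.6% in Ri replicate 2, 87.6% in Ri replicate 3 and 91.5% in Ga-H replicate 2. It was 59.7% in Ga-H replicate 1, 65.7% in Ga-H replicate 3, between 59.1% and 71.9% in the Ga-L libraries, and 47% in Ri replicate 1. The lists differed in length, from 574 genes without NM replicate 2 to 4775 without Ri replicate 1, so these shares are not all over the same genes.

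A gene can also be read by whether any colonized library overlaps with NM. Over all tested genes, the 9 colonized libraries all lay above the 3 NM libraries at 3079 genes (8.48%) and all below at 1193 genes (3.28%). Of the 3363 genes that rose, 2644 (78.6%) were free of overlap, and of the 1715 that fell, 783 (45.7%). Of the rising genes free of overlap, 2592 had a count in at least 1 NM library. At 885 of these the gap between the lowest colonized and the highest NM library was at least 2-fold. For the falling genes, a gap of at least 2-fold from the lowest NM to the highest colonized library was found at 15. Among the 719 rising genes with overlap, the lowest colonized library was Ri replicate 1 at 199 genes, more than at any other library. Among the 932 falling genes with overlap, the highest colonized library was Ga-L replicate 3 at 247 genes, Ga-H replicate 1 at 228 and Ga-H replicate 3 at 163.

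The comparisons of the single inocula with NM share the NM libraries, and their sizes are given side by side. Rising genes had a median log2 fold change against NM of 1.27 for Ri, 1.30 for Ga-H and 1.41 for Ga-L. Falling genes had -0.91 for Ri and -0.68 for both Ga-H and Ga-L. Over all tested genes the medians were 0.03, 0.00 and 0.01. Set directly against each other, the inocula differed by a median of 0.24 log2 units at the rising genes between Ga-L and Ga-H (Ga-L higher), and by 0.15 between Ga-L and Ri (Ga-L higher).

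The inocula came within 1 log2 unit of each other at most called genes, but less often than among all tested genes. The range between the highest and the lowest of the 3 inoculum means was under 1 log2 unit at 2550 of the rising genes (75.8%) and at 1270 of the falling genes (74.1%), against 85.7% of all tested genes. Ga-L was the highest of the 3 at 55.1% of the rising genes, Ri at 32.3% and Ga-H at 12.6%. Over all tested genes these shares were 35.8%, 32.4% and 31.8%. Without Ri replicate 1 the shares at the rising genes were 52.9%, 37.3% and 9.72%, against 33%, 37.3% and 29.7% over all tested genes. At the falling genes Ri was the lowest at 47.6%, Ga-L at 35.6% and Ga-H at 16.9%. Over all tested genes the shares for the lowest were 30.5%, 38.8% and 30.7%. Without Ri replicate 1 they were 57.7%, 28.2% and 14.1% at the falling genes, against 34.8%, 35.6% and 29.6% over all tested genes.

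A test of any difference among Ri, Ga-H and Ga-L used no NM mean. At the same threshold in edgeR it called 953 of 36323 genes (2.62%). Among them were 225 genes that rose with colonization (6.69% of those) and 188 that fell (11%), while 540 were called in neither direction. The median range between inocula was 1.49 log2 units at the 225 rising genes. Ga-L was the highest of the inocula at 161 of them and Ri the lowest at 161. At the 188 falling genes Ga-L was the highest at 170 and Ri the lowest at 138. Without Ri replicate 1, 1082 rising genes (32.2%) and 571 falling genes (33.3%) differed among inocula, against 16.5% of all genes tested in that fit. Ga-L was then the highest at 658 and Ri the lowest at 614 of the 1082, and at 384 and 412 of the 571. With all libraries, over all 953 genes Ga-L was the highest at 606 and Ri the lowest at 513.

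The number of genes called different among inocula rested on single libraries. It was 26 without Ga-L replicate 2, 95 without Ga-L replicate 3, 212 without Ri replicate 3, 224 without Ga-H replicate 1, 396 without Ga-H replicate 2, 557 without NM replicate 3 and 6091 without Ri replicate 1. DESeq2 called 3529. At an unadjusted p under 0.05 edgeR gave 7792 genes.

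Genes that rose and fell came from every chromosome. Across the 20 numbered chromosomes the share of tested genes that rose ran from 7.66% on chromosome 7 to 10.7% on chromosome 18, around 9.26% for all genes. The share that fell ran from 3.61% on chromosome 9 to 6.02% on chromosome 1, around 4.72%. Genes listed with at least 2 transcripts made up 34.1% of the rising, 29.3% of the falling and 37.3% of all tested genes.

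A few genes are given by ID. In each direction these are the gene with the smallest p and the gene with the largest change in mean FPKM. Both had to be called, free of overlap between colonized and NM libraries, and at 1 FPKM or more on the side with more transcript. The rising gene with the smallest p was Glyma.20G137400.Wm82.a2.v1 on chromosome 20. It was at 0.15, 0.15 and 0.22 FPKM in NM, 3.32, 2.64 and 2.57 in Ri, 7.45, 6.87 and 6.93 in Ga-H, and 9.21, 10.8 and 8.15 in Ga-L. All groups were separate, in the order NM, Ri, Ga-H, Ga-L. The log2 fold change was 5.02 (SE 0.20, edgeR adjusted p = 7.81e-07), with all 9 colonized libraries higher. The inocula differed at this gene (adjusted p = 0.00528, edgeR), with log2 fold changes against NM of 3.99 for Ri, 5.30 for Ga-H and 5.78 for Ga-L.

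The largest gain in FPKM was at Glyma.17G230500.Wm82.a2.v1 on chromosome 17, an abundant transcript in all libraries. It was at 1012, 1122 and 1046 FPKM in NM, 3661, 2942 and 2527 in Ri, 2626, 2346 and 2204 in Ga-H, and 2386, 2577 and 2463 in Ga-L. The NM and colonized libraries were far apart, the inocula overlapped, and Ri replicate 1 was the highest. The log2 fold change was 1.31 (SE 0.15, edgeR adjusted p = 0.000161). In the test against a change of at least 2-fold it did not pass (adjusted p = 0.194, edgeR's glmTreat). The adjusted p in the other alternatives, all against no change, was at most 0.00243.

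Among falling genes the smallest p was at Glyma.10G137300.Wm82.a2.v1 on chromosome 10. It was at 19.9, 25.4 and 30 FPKM in NM, 0.73, 0.86 and 1.55 in Ri, 3.65, 3.71 and 3.42 in Ga-H, and 5.94, 4.75 and 6.7 in Ga-L. The groups did not overlap, and the order of the inocula was Ri, Ga-H, Ga-L from low to high. The log2 fold change was -3.16 (SE 0.17, edgeR adjusted p = 2.07e-06), lower in 9 of 9 colonized libraries. The inocula differed (adjusted p = 0.00824, edgeR), with log2 fold changes against NM of -4.59 for Ri, -2.83 for Ga-H and -2.06 for Ga-L.

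Among called genes free of overlap, the largest loss in FPKM was at Glyma.13G252000.Wm82.a2.v1 on chromosome 13. It was at 3870, 1654 and 5033 FPKM in NM, 6.82, 2.98 and 4.27 in Ri, 0, 100 and 7.06 in Ga-H, and 2.71, 903 and 66.6 in Ga-L. All colonized libraries lay below NM, but they differed widely among themselves, with Ga-L replicate 2 the highest. The log2 fold change was -6.53 (SE 1.25, edgeR adjusted p = 0.00531). Taken singly against NM, Ri passed (edgeR adjusted p = 0.0196), while Ga-H (0.0696) and Ga-L (0.204) did not. With 1 common mean for the colonized libraries it was -4.82 and did not pass (adjusted p = 0.0809, edgeR), and the adjusted p over the alternatives ran from 0.000248 to 0.0809.

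For the difference among inocula, the 2 rising and 2 falling genes with the smallest p not already named are given. Glyma.12G129500.Wm82.a2.v1 on chromosome 12 was at 0.81, 0.64 and 0.68 FPKM in NM, 9.99, 16.2 and 9.05 in Ri, 1.66, 2.13 and 3 in Ga-H, and 1.05, 1.39 and 1.57 in Ga-L. The Ri libraries were far above the others, and Ga-L was just above NM. It was called higher in the pooled comparison (log2 fold change 2.19, SE 0.30, edgeR adjusted p = 0.000431), and against NM it passed for Ri (edgeR adjusted p = 1.78e-05) but not for Ga-L (log2 fold change 0.94, edgeR adjusted p = 0.101). The difference among inocula had an adjusted p of 0.00528 (edgeR). With 1 common mean for the colonized libraries the pooled call did not pass (adjusted p = 0.0989, edgeR, in a range from 3.25e-08 to 0.0989 over the alternatives).

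Glyma.18G141900.Wm82.a2.v1 on chromosome 18 rose in the order Ga-L, Ga-H, Ri. It was at 1.24, 1.15 and 2.31 FPKM in NM, 9.01, 8.3 and 7.8 in Ga-L, 14.4, 13.2 and 14.1 in Ga-H, and 30.9, 32.3 and 35.4 in Ri. None of these ranges overlapped. The pooled log2 fold change was 3.31 (SE 0.19, edgeR adjusted p = 2.08e-06), and the adjusted p among inocula was 0.00533 in the same fit.

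At both falling genes of this kind Ga-L overlapped with NM and its difference from NM did not pass the test. Glyma.05G193900.Wm82.a2.v1 on chromosome 5 was at 3.69, 2.97 and 4.09 FPKM in NM and 2.46, 4.45 and 3.5 in Ga-L. It was at 0.22, 0.09 and 0.08 FPKM in Ri and 0.34, 0.42 and 0.32 in Ga-H. Against NM, the log2 difference was -4.81 (SE 0.36) for Ri, -3.34 (SE 0.31) for Ga-H and 0.00 (SE 0.26, edgeR adjusted p = 0.995) for Ga-L. The pooled value was -2.72 (SE 0.22, edgeR adjusted p = 1.27e-05), and the inocula differed with adjusted p = 0.000761 in edgeR. The pooled call was lost with 1 common mean for the colonized libraries (adjusted p = 0.358, edgeR, in a range from 9.48e-20 to 0.358 over the alternatives).

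Glyma.11G192400.Wm82.a2.v1 on chromosome 11 was at 4.85, 3.89 and 3.72 FPKM in NM, 2.6, 3.74 and 3.07 in Ga-L, 1.29, 1.23 and 1.7 in Ga-H, and 0.4, 0.4 and 0.17 in Ri. Ri and Ga-H were apart from NM and from each other, and Ga-L replicate 2 was above NM replicate 3. Against NM the log2 difference in Ga-L was -0.36 (SE 0.25, edgeR adjusted p = 0.359). Its pooled log2 fold change was -1.87 (SE 0.20, edgeR adjusted p = 8.39e-05), with adjusted p = 0.00533 among inocula. The pooled call was lost with 1 common mean (adjusted p = 0.198, edgeR, in a range from 3.36e-13 to 0.198 over the alternatives).

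**Figure D4:**
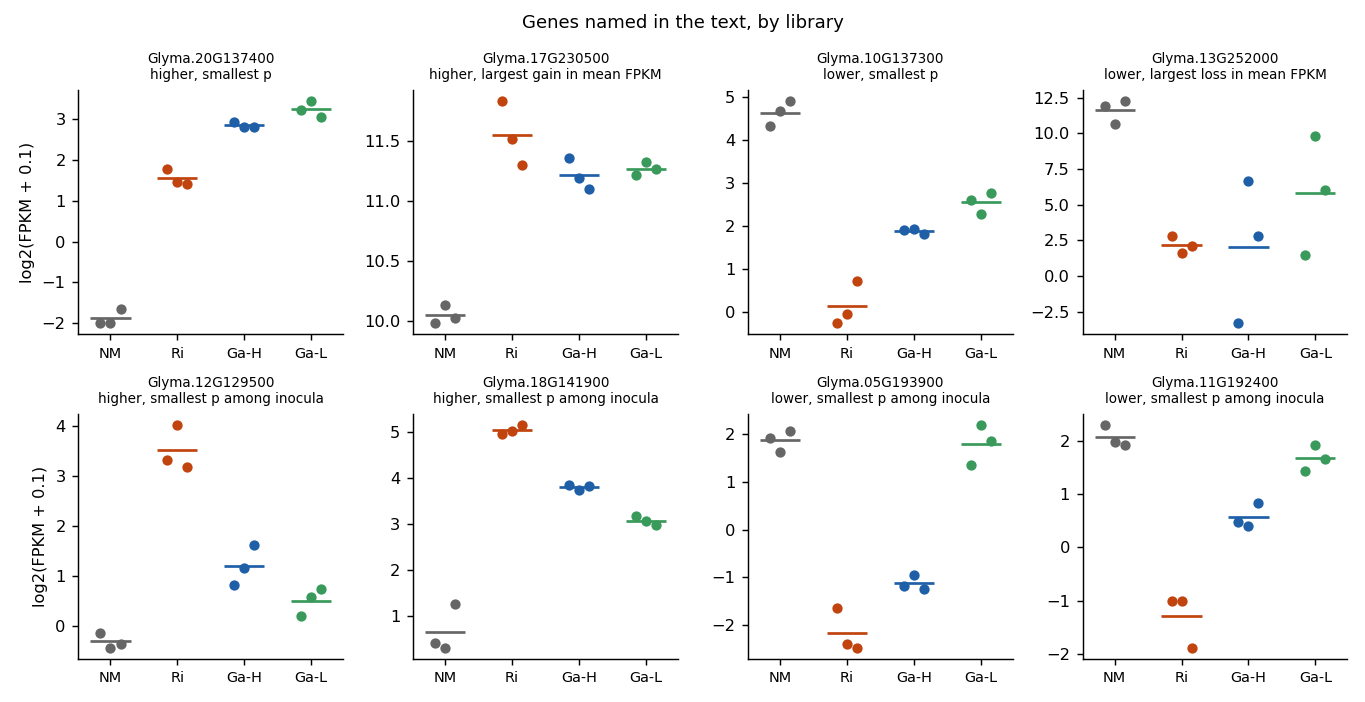
Each panel shows 1 gene by library, as log2(FPKM + 0.1), with 3 points per group and a line at the group mean, and the title gives why the gene was chosen. In the upper row the colonized libraries of all inocula lie apart from NM, and in the lower row the inocula differ, and at Glyma.05G193900.Wm82.a2.v1 and Glyma.11G192400.Wm82.a2.v1 the Ga-L libraries overlap with NM.

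The deposited tables also list a length for each gene and library. It was the same in every library for the 34496 genes with 1 listed transcript, and varied between libraries for 92.6% of the 15055 genes with at least 2. A gene's listed length thus moved only where several transcripts were annotated, and it may reflect the mix of transcripts in a library, but no header says how it was computed. It was tested with limma on log2 length in 10429 genes with a mean of at least 50 counts, a test added after the files had been seen.

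Few genes changed their listed length with colonization. At an adjusted p of 0.05, 13 genes were longer and 2 shorter in colonized roots, or 0.144% of those tested, and 710 genes (6.81%) had an unadjusted p under 0.05 in limma. Of the 15, 6 changed by at least 0.1 log2 units. Of the 15, 13 also rose in the count test, which was true of 8.93% of the genes tested for length. In 8 of the 15, every NM library held fewer than 20 counts, so that the NM length rests on few reads. The part of this in the result was not tested.

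Of the genes that changed by at least 0.1 log2 units, the 2 longer and the 1 shorter gene with the smallest p are given, chosen after their values were seen. Glyma.15G020300.Wm82.a2.v1 on chromosome 15, with 2 listed transcripts, was listed at 1855, 1901 and 1985 bases in NM and at 2479 bases in each of the 9 colonized libraries. The difference was 0.37 log2 units (SE 0.016, limma adjusted p = 1.77e-05). The colonized libraries had no spread in this value, which lowers the common estimate of the spread, so the SE and p understate the error that the NM libraries show. Its counts were 362, 294 and 300 in NM and between 775 and 3096 in colonized libraries, and its log2 fold change was 2.29 (SE 0.32, edgeR adjusted p = 0.00068). Both the amount and the listed length of this gene therefore changed.

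Glyma.17G077100.Wm82.a2.v1 on chromosome 17, with 3 listed transcripts, was listed at 3172, 3229 and 3107 bases in NM, 3673, 3578 and 3498 in Ri, 3662, 3580 and 3662 in Ga-H, and 3684, 3660 and 3702 in Ga-L. The difference was 0.20 log2 units (SE 0.016, limma adjusted p = 0.002). Its counts changed little, from 332, 266 and 251 in NM to between 310 and 449 in colonized libraries, with a log2 fold change of 0.44 (SE 0.10, edgeR adjusted p = 0.0142). Glyma.09G200500.Wm82.a2.v1 on chromosome 9, with 3 listed transcripts, was shorter in colonized roots, at 2415, 2399 and 2446 bases in Ri, 2443, 2512 and 2506 in Ga-H, and 2421, 2531 and 2493 in Ga-L, against 3661, 4009 and 3585 in NM. The difference was -0.61 log2 units (SE 0.031, limma adjusted p = 5.29e-05). The NM libraries held only 9, 10 and 9 counts of it, against 108 to 346 in the colonized ones.

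**Figure D5:**
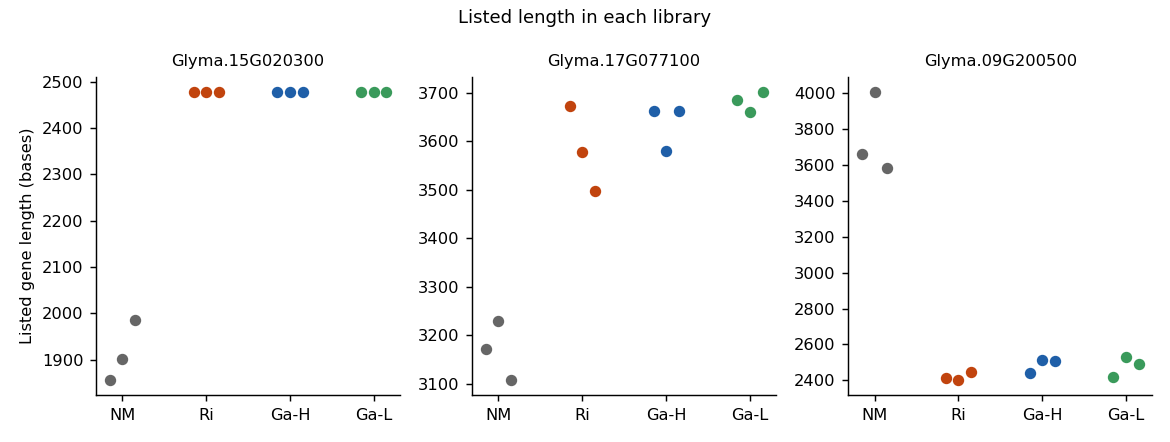
Listed gene length in bases for 3 genes, with 1 point per library and 3 libraries per group. The 9 colonized libraries lie above NM at Glyma.15G020300.Wm82.a2.v1 and Glyma.17G077100.Wm82.a2.v1 and below it at Glyma.09G200500.Wm82.a2.v1, with no overlap.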

How the data were processed

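Each library came as 1 deposited table of genes, per the file headers with an expected count (an estimate that need not be whole), an FPKM value and a listed length. Bowtie2, HISAT and RSEM appear in the submitters' processing notes, which attach no role or version to them. Expected counts divide reads that match several genes, so the values of near-identical genes are uncertain; no such genes were identified here. Genes missing from a table were set to 0. The IDs carry the tag Wm82.a2.v1. Build, strand handling and read length: not given in the sources used here. None of the 59048 genes of the RefSeq table (Glycine_max_v4.0) matched one of the 49551 deposited IDs, so pathway and marker lists could not be applied.

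Expected counts were rounded and tested in R 4.3.3 with edgeR 4.0.16 (filterByExpr by group, TMM, robust quasi-likelihood fit, 1 mean per group, 8 residual degrees of freedom). The filter kept 99.8% of counts, and the biological coefficient of variation was 22.4%. P-values were adjusted by Benjamini-Hochberg over all tested genes. An SE is the fold change divided by the root of its F statistic. The authors' FPKM served for levels and for limma 3.58.1 on log2(FPKM + 1). Alternatives were other scalings, no filter, DESeq2 1.42.0, limma, the replicate number as a block, 1 colonized mean, glmTreat and each library left out. The fits were tested on simulated data. The comparison, the lists and the rule for named genes were chosen with earlier results of these data known. That rule takes, at 1 FPKM or more, the smallest p and the largest FPKM change in each direction, then the 2 smallest p among inocula in each direction. Replicates of a group differed by more than counting noise, and each was counted as 1 sample.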

Additional observations from a re-analysis of the deposited data

Results flagged for a closer look

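In the 9 colonized libraries, 2 named genes had a highest value far from the rest. At Glyma.13G252000.Wm82.a2.v1 the gap between Ga-L replicate 2 (903 FPKM) and the next library took up 0.889 of the whole range, and at Glyma.17G230500.Wm82.a2.v1 that of Ri replicate 1 (3661 FPKM) took up 0.494, against a limit of 0.493. Such gaps were examined in 14 sets of values, and chance passes the limit in about 1 of 20.

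At 6 named genes the inocula differed in their effect. The Benjamini-Hochberg adjusted p from edgeR was 0.00528 for Glyma.20G137400.Wm82.a2.v1 and Glyma.12G129500.Wm82.a2.v1, 0.00824 for Glyma.10G137300.Wm82.a2.v1, 0.00533 for Glyma.18G141900.Wm82.a2.v1 and Glyma.11G192400.Wm82.a2.v1, and 0.000761 for Glyma.05G193900.Wm82.a2.v1. Of these, 4 were named for this difference.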

How the results depend on the processing

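Of 149 alternative values of the main counts, 114 stayed on their side or within 1.5 times. For rising genes the exceptions were 1095 against at least 2-fold, 1927 at an adjusted p of 0.01 and 2023 without NM replicate 2 (2023 to 4906 over all left-out libraries). Falling genes numbered 44 against at least 2-fold, 424 at 0.01, 688 with 1 colonized mean, and 578 to 4817 with a library left out. With the replicate number as a block (replicate block), 3137 genes were higher, 1867 lower and 551 different among inocula, and no named gene lost its call. The correlations of same-numbered libraries ran from -0.379 to 0.227, with 6 of 18 pairs over 0.1, all between colonized groups. Between colonized groups, same-numbered pairs ran from -0.0366 to 0.227 and different-numbered pairs from -0.238 to 0.169. Same-numbered pairs of an NM and a colonized library ran from -0.379 to 0.0761. Not every library correlated best with its own number. The labels do not say what the number marks, and whether same-numbered colonized libraries share a batch was not tested. Genes different among inocula numbered 3529 with DESeq2 and 26 to 6091 with a library left out, and those also called against NM 1170 and 22 to 1653 (413 with all libraries; 1653 without Ri replicate 1). Genes with all colonized libraries below NM numbered 1193, and 1263 to 2795 with a library left out (2795, 2009 and 1937 without NM replicates 1 and 3 and Ga-H replicate 1). At a fixed scaling this count cannot drop when a library is left out, since fewer libraries have to be separate. The difference in genes listed was 380 to 470 with a library left out, and it passed without Ri replicate 2 (470) or Ga-L replicate 2 (467), both at an exact permutation p of 0.0364. Genes with a changed listed length numbered 7 at a mean count of at least 200 and 10 to 24 with a library left out (24 without NM replicate 1). The causes were not tested. No named value changed direction in any alternative that gave one. Depth limits calls at low levels.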
